A study of Homo sapiens with 6 samples.

Results

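The ligands and receptors of the tumor necrosis factor (TNF) superfamily were followed in PC-3 cells treated with S-adenosylmethionine (SAM). The genes were chosen by symbol, as every listed gene named TNF, LTA, LTB, LTBR, FAS, FASLG, CD27, CD40, CD40LG or CD70, or numbered as a TNFSF ligand or a TNFRSF receptor. The rule matched 42 of 57396 listed genes, 17 ligands and 25 receptors. The rule itself used no measured value, but the family was chosen with earlier results of these data known. PC-3 is an established line grown from a metastasis of a prostate carcinoma, and both groups came from this 1 line. The labels give treatment with 160 micromolar SAM in 3 libraries and with PBS, the vehicle, in 3 control libraries, each for 5 days. SAM is the main methyl donor of the cell. The comparison described here is that of SAM with vehicle.

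TNF superfamily ligands are trimers, mostly anchored in the membrane of the cell that makes them, from which proteases can release some of them. Their receptors fall into those with a death domain, which can recruit caspases, those that bind TRAF adaptors and activate NF-kB, and decoys that bind ligand without a full signal. In carcinoma cells the family is known best for apoptosis through FAS and the TRAIL receptors and for NF-kB signals through TNFRSF1A, LTBR and CD40.

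Total gene counts ran from 9379258 to 28995160 per library. A floor of 3 counts stood for 0.103 CPM (the count scaled to the TMM-adjusted size of its library) in the deepest library and for 0.322 CPM in the shallowest. The labels do not say whether replicates were separate cultures, so every p-value is set against a spread that may be technical. The epithelial markers KRT8, KRT18, KRT19 and EPCAM together reached 2548 to 3340 CPM with SAM and 2974 to 3126 CPM in controls. The leukocyte list summed to 1.35 to 2.38 CPM with SAM and 1.39 to 2.94 CPM in controls, with MS4A1 at 0 throughout. The fibroblast and endothelial list summed to 17.5 to 18.2 CPM with SAM and 18.2 to 19.5 CPM in controls. Most of that was COL1A1, which averaged 16.8 CPM with SAM and 17.7 CPM in controls. KLK3, the prostate-specific antigen, had no count in any library. Differences between libraries of a group were measured as a chi-square of counts per degree of freedom, a ratio to the sampling variance. With SAM they were largest for SAM 2, at 55.2 and 49.98 against SAM 1 and 3, and 22.3 between those. In controls they were largest for control 1, at 28.6 and 25.3 against control 2 and 3, and 4.57 between those. Values without both SAM 2 and control 1 are given below.

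In these cells 3 members fell with SAM and none rose. LTB, the membrane-anchoring subunit of the lymphotoxin heterotrimer, averaged 1.38 ± 0.355 CPM with SAM and 4.42 ± 0.867 CPM in controls (SD, n = 3 each), 3.32-fold lower in the fit. TNFSF18, the ligand of GITR, averaged 1.12 ± 0.370 CPM with SAM and 2.93 ± 0.505 CPM in controls, 2.83-fold lower. TNFRSF21, also called death receptor 6, averaged 262 ± 29.1 CPM with SAM and 388 ± 12.4 CPM in controls, 1.48-fold lower. Of the 42 members, 25 had enough counts to be tested with edgeR's quasi-likelihood test, so the calls are 3 of 25, all downward, at a Benjamini-Hochberg adjusted p under 0.05. Among all 15312 genes tested, 10.4% were called, 5.24% lower and 5.19% higher with SAM, so the share of members called lies near that of all genes. By single tests without adjustment, 6 members were lower and 1, TNFRSF25, higher at p under 0.05. The share of all genes under this cut was not counted, so whether members exceed all genes there was not tested. DESeq2 and limma voom also called LTB, TNFSF18 and TNFRSF21 and 0 members higher.

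The sequences upstream of these 3 genes are shown because their transcripts carry the change and because their makeup differs. Each is the stretch of 250 bases before the annotated start in RefSeq (GRCh38.p14), read 5′ to 3′ on the strand of the gene, which is the minus strand in all 3 cases. Capitals mark a match of the NF-kB consensus on either strand.

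LTB, chr6:31582426-31582675: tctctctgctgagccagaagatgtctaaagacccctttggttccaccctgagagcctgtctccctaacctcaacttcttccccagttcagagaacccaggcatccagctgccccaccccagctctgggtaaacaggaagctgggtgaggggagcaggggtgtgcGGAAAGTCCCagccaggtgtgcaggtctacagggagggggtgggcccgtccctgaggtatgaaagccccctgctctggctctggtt

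TNFSF18, chr1:173050942-173051191: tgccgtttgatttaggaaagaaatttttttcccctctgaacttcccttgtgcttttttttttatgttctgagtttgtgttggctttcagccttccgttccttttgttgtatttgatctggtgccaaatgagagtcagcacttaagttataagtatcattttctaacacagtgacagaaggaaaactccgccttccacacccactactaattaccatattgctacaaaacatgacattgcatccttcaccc

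TNFRSF21, chr6:47309906-47310155: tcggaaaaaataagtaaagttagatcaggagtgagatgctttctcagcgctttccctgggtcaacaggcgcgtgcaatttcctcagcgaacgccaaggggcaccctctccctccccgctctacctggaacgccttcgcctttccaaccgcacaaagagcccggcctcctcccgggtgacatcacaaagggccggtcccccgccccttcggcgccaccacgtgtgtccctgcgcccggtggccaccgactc

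The LTB stretch held 1 match of the NF-kB consensus, whose first base lies 86 bases before the RefSeq start. The listed span of LTB reaches position 31582522, beyond that start, so the match and part of the stretch lie inside it. The listed span of TNFSF18 reaches position 173050963 and likewise takes in part of its stretch. No match was found in the TNFSF18 and TNFRSF21 stretches. Among all 35116 promoter stretches of the same length in the table, 9.96% held a match. Of 37 stretches that belong to 28 members, 11 held one, or 29.7%, and some of these stretches belong to 1 gene and overlap. CpG dinucleotides, the sites of DNA methylation, numbered 2 for LTB, 3 for TNFSF18 and 20 for TNFRSF21, against a median of 11 over all stretches and 7 over those of members. The 3 genes that fell therefore included 2 with CpG numbers under the median of all stretches and 1 above it. Of all stretches, 22.9% held at most as many CpG as LTB, 29.3% as TNFSF18 and 69.8% as TNFRSF21. A match is a description of the letters and no measurement of binding, and DNA methylation was not analysed here.

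**Figure D1:**
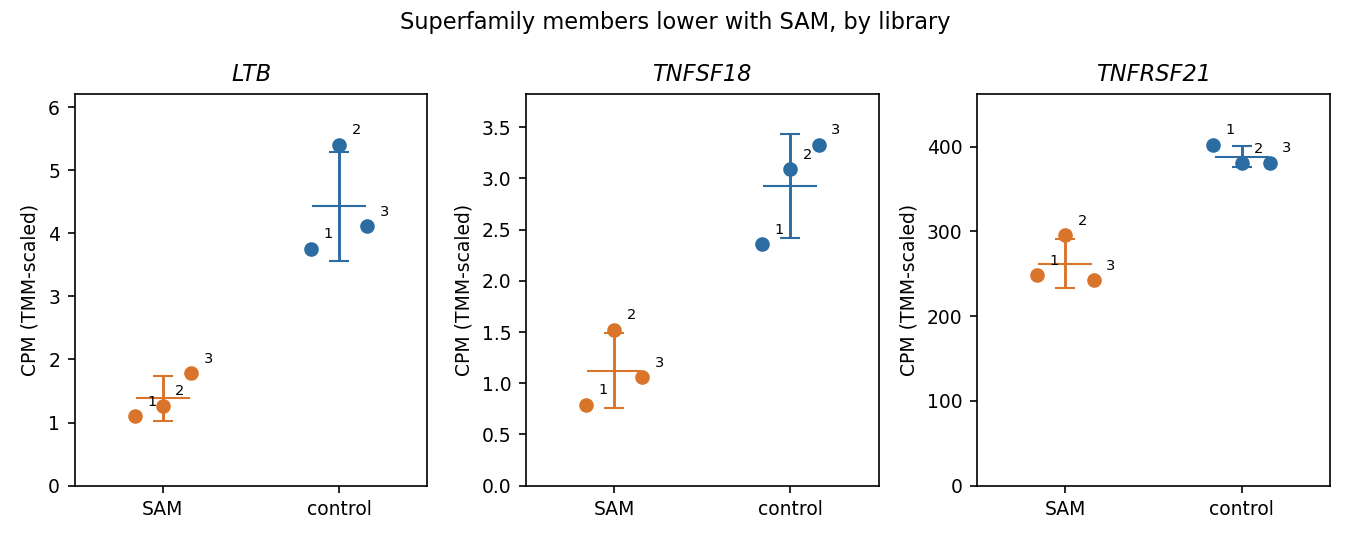
CPM (vertical axes, from 0) of LTB, TNFSF18 and TNFRSF21 in the 3 SAM libraries (orange, left) and the 3 control libraries (blue, right). Numbers mark the replicates, bars the mean and SD. The highest SAM library lies under the lowest control library for each gene, at 1.78 against 3.75 CPM for LTB.

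LTB (ENSG00000227507, chromosome 6, positions 31580525 to 31582522) had 1.10, 1.27 and 1.78 CPM in SAM 1 to 3, against 3.75, 5.40 and 4.11 CPM in control 1 to 3. Every SAM library lay under every control library, on counts of 32, 15 and 27 with SAM and 35, 119 and 84 in controls. The log2 fold change was -1.73 (SE 0.24, 95% interval -2.27 to -1.19, edgeR adjusted p = 0.00481). LTB lies in a cluster with LTA and TNF, the other classical cytokines of the family. LTA, the partner that completes the lymphotoxin heterotrimer, had 4, 0 and 3 counts with SAM and 1, 2 and 2 in controls. TNF itself had 0 counts in each SAM library and 0, 2 and 0 counts in controls, at or under the floor. NFKBIL1, the nearest well-covered neighbour listed on the other side of LTA, had a log2 fold change of -0.06 (SE 0.15, adjusted p = 0.825).

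TNFSF18 (ENSG00000120337, chromosome 1, positions 173039960 to 173050963) had 0.792, 1.52 and 1.06 CPM with SAM and 2.36, 3.09 and 3.33 CPM in controls. The counts behind these levels were 23, 18 and 16 with SAM and 22, 68 and 68 in controls. The groups did not overlap once scaled to depth, and the log2 fold change was -1.50 (SE 0.27, 95% interval -2.09 to -0.91, adjusted p = 0.0114). Its neighbour TNFSF4, the OX40 ligand, which like TNFSF18 costimulates T cells, had 0.792, 2.11 and 0.924 CPM with SAM and 1.72, 1.14 and 1.27 CPM in controls. These ranges overlapped (log2 fold change -0.17, SE 0.38, adjusted p = 0.781).

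TNFRSF21 (ENSG00000146072, chromosome 6, positions 47231532 to 47309905) encodes a death domain receptor studied mainly in neurons and lymphocytes. It had 248.5, 295.6 and 242.4 CPM with SAM and 402.4, 380.7 and 381.2 CPM in controls, with every SAM library under every control. The log2 fold change was -0.57 (SE 0.10, 95% interval -0.79 to -0.34, adjusted p = 0.0119). Per kilobase of the longest GENCODE transcript it stood at 72.9 CPM per kilobase with SAM and 108 in controls. On that scale it was first among members in controls, and TNFRSF12A was first with SAM at 80.4 CPM per kilobase. The 15 tested receptors summed to 943 to 954 CPM with SAM and 1058 to 1087 CPM in controls. Without TNFRSF21 the sums overlapped, at 656 to 711 CPM with SAM and 656 to 706 CPM in controls.

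The calls differed in whether they passed with 1 library left out. LTB passed when any library was left out, with a log2 fold change between -1.95 and -1.54 and an adjusted p of at most 0.0458. TNFSF18 was not called without SAM 1 (adjusted p = 0.0747), control 2 (adjusted p = 0.0637) or control 3 (adjusted p = 0.0856). TNFRSF21 was not called without SAM 1 (adjusted p = 0.0706) or without control 1, 2 or 3 (adjusted p = 0.0726, 0.0603 and 0.0821). Their log2 fold changes stayed between -1.73 and -1.23 and between -0.66 and -0.51 in these fits, which test fewer samples. Without both control 1 and SAM 2 all 3 genes were called, at log2 fold changes of -1.78 for LTB, -1.83 for TNFSF18 and -0.63 for TNFRSF21.

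**Figure D2:**
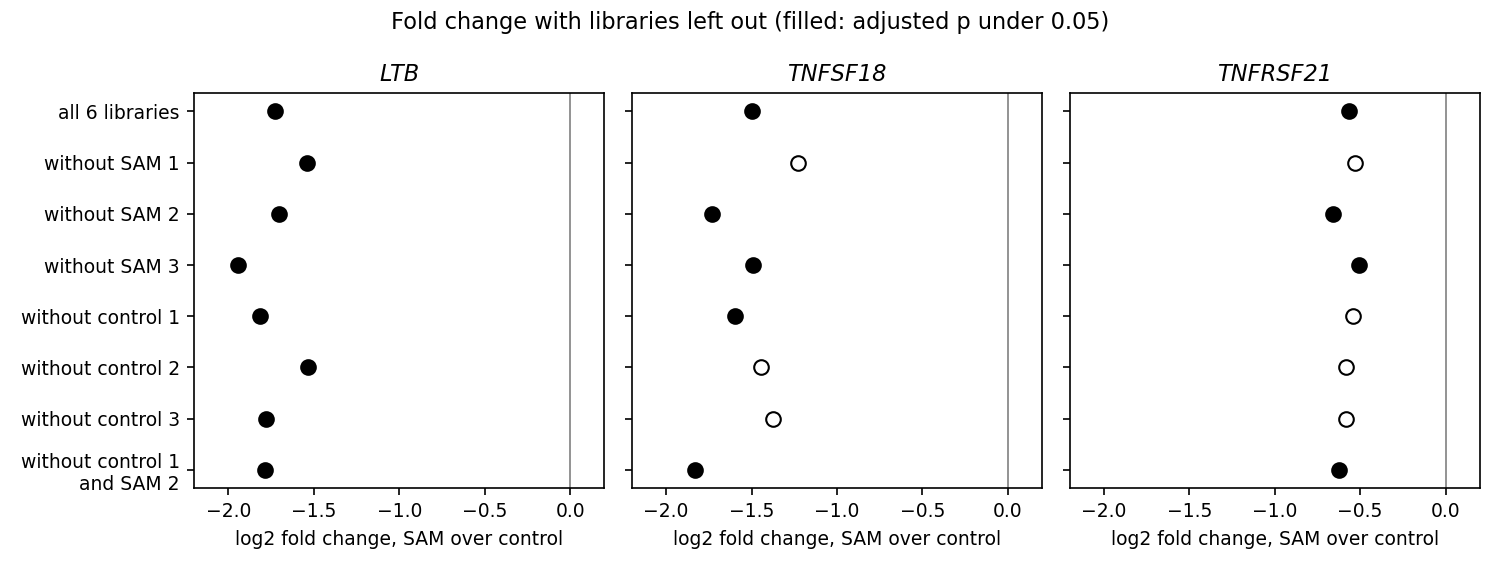
Log2 fold change of SAM over control (horizontal axes) for LTB, TNFSF18 and TNFRSF21 in fits with all 6 libraries, with 1 library left out, and without control 1 and SAM 2 (rows). Filled points have an adjusted p under 0.05. LTB is filled in every row, and all points lie under 0.

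Among the ligands 10 of 17 were tested. Per kilobase of transcript the highest was TNFSF12 (TWEAK), at 13.5 CPM per kilobase with SAM and 13.2 in controls, and the lowest TNFSF14 (LIGHT), at 0.248 with SAM and 0.199 in controls. LTB stood 5th of the 10 ligands with SAM, at 0.997 CPM per kilobase, and 4th in controls, at 3.19. TNFSF13, or APRIL, a factor for B cell survival, had 13.6, 13.5 and 16.04 CPM with SAM and 18.6, 18.1 and 17.3 CPM in controls. The groups did not overlap, and the adjusted p missed the threshold (log2 fold change -0.32, SE 0.11, adjusted p = 0.0955). Without SAM 3 it was called, at -0.40 (adjusted p = 0.0241). TNFSF12, a ligand of epithelial growth and death signals, averaged 21.9 ± 4.44 CPM with SAM and 21.5 ± 0.623 CPM in controls (SD, n = 3 each), and its 95% interval for the log2 fold change was -0.29 to 0.33.

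TNFSF10 encodes TRAIL, the ligand of the death receptors TNFRSF10A and TNFRSF10B. It had 1.83, 1.52 and 1.78 CPM with SAM and 2.90, 3.09 and 2.01 CPM in controls. No SAM library reached the lowest control, but the log2 fold change of -0.61 (SE 0.23) did not pass (adjusted p = 0.109). TNFSF15, or TL1A, the ligand of TNFRSF25, had 19.8, 30.0 and 19.3 CPM with SAM and 23.4, 19.9 and 21.6 CPM in controls, with SAM 2 above all others and the rest mixed. TNFSF9, the 4-1BB ligand, averaged 3.68 ± 0.699 CPM with SAM and 4.18 ± 0.378 CPM in controls (SD, n = 3 each). TNFSF14, or LIGHT, which binds LTBR and TNFRSF14, averaged 1.11 CPM with SAM and 0.894 CPM in controls. CD70, the ligand of CD27, lay between 0.338 and 0.751 CPM in all libraries, and it alone among tested members was under 0.564 CPM, the minimum that the low-count filter asks of 3 libraries, in some libraries. The 10 ligands summed to 62.4 to 74.1 CPM with SAM and 77.0 to 79.7 CPM in controls.

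**Figure D3:**
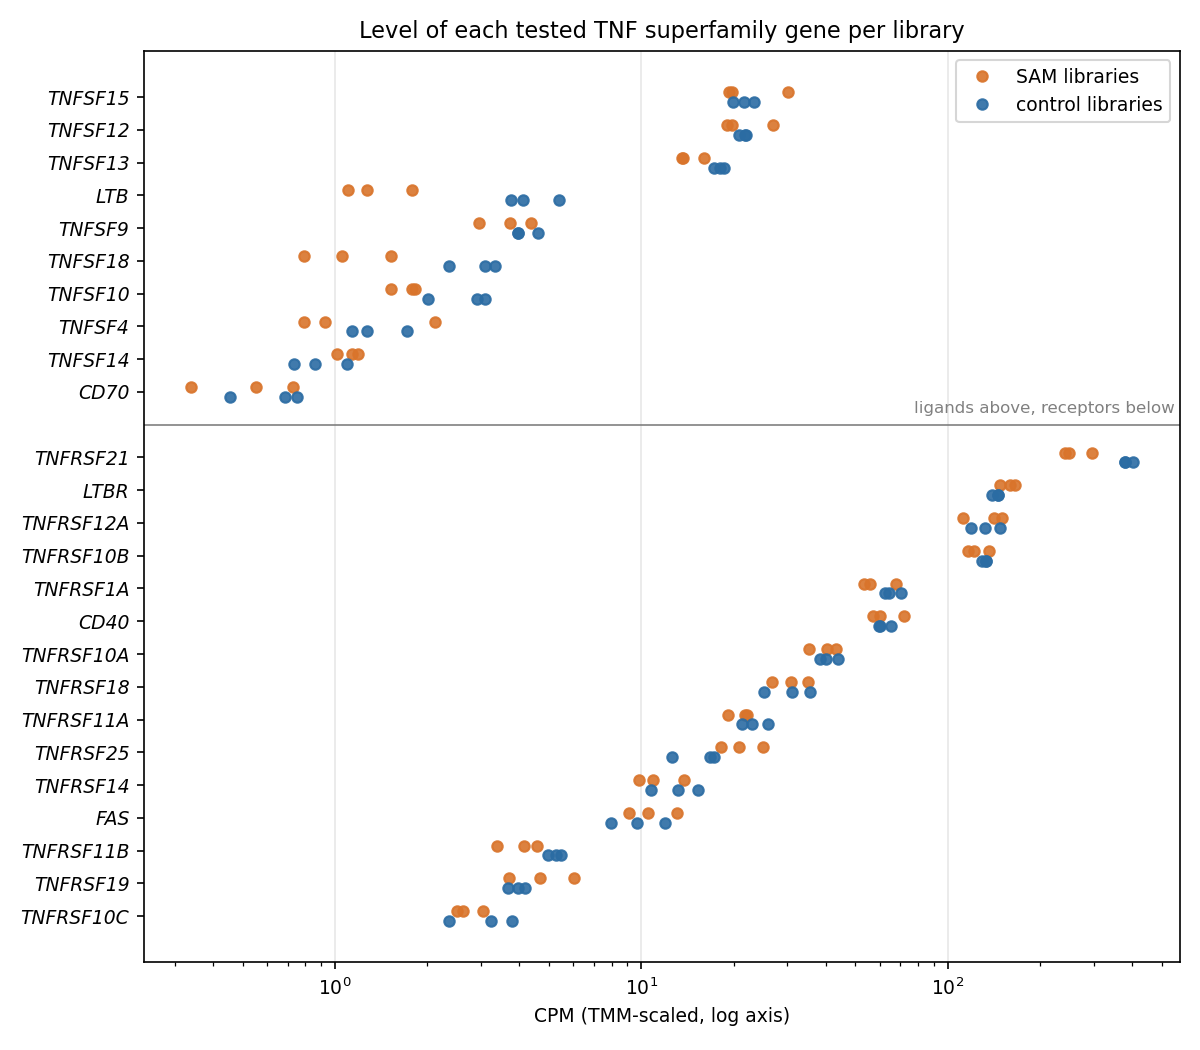
CPM on a log axis (horizontal) for each of the 25 tested members (rows, ligands above the line and receptors below), with 3 SAM libraries in orange above 3 control libraries in blue. CPM is not scaled for transcript length, so groups are compared within a row. Groups are clear of each other for LTB, TNFSF18 and TNFRSF21 and overlap for CD40 and FAS.

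Death domain receptors other than TNFRSF21 were not called. TNFRSF1A, the main TNF receptor of epithelial cells, had 53.2, 55.8 and 68.1 CPM with SAM and 64.6, 62.4 and 70.4 CPM in controls (log2 fold change -0.16, SE 0.11, adjusted p = 0.363). It was called only when SAM 3, its highest SAM library, was left out (log2 fold change -0.27, adjusted p = 0.0454). FAS, the receptor of Fas ligand, had 13.1, 10.5 and 9.11 CPM with SAM and 7.94, 12.0 and 9.65 CPM in controls, so the ranges overlapped in part. TNFRSF25, the death domain receptor of TNFSF15, had 18.3, 20.8 and 25.0 CPM with SAM and 12.5, 17.3 and 16.7 CPM in controls. All SAM libraries of TNFRSF25 were above all controls, with a log2 fold change of 0.44 (SE 0.16, adjusted p = 0.0958), and with no filter on low counts it was called (adjusted p = 0.0186).

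The TRAIL receptors form a cluster on chromosome 8. TNFRSF10A averaged 39.6 ± 3.92 CPM with SAM and 40.7 ± 2.94 CPM in controls (SD, n = 3 each), and TNFRSF10B 125 ± 10.5 and 132 ± 2.36 CPM. The 95% intervals of their log2 fold changes were -0.27 to 0.19 and -0.30 to 0.13. Among the decoys of that cluster, TNFRSF10C averaged 2.72 CPM with SAM and 3.12 CPM in controls, and TNFRSF10D had at most 3 counts in any library. TNFRSF11B, or osteoprotegerin, a secreted decoy for TRAIL and for the osteoclast factor TNFSF11, had 4.13, 4.57 and 3.37 CPM with SAM and 5.26, 5.45 and 4.95 CPM in controls. The groups did not overlap, and the log2 fold change of -0.38 (SE 0.16) did not pass (adjusted p = 0.154).

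Receptors that signal through TRAF adaptors without a death domain were not called. LTBR, the receptor of the lymphotoxin heterotrimer that LTB anchors, had 160, 149 and 166 CPM with SAM and 140, 146 and 146 CPM in controls. Its SAM libraries lay just above the controls, at a log2 fold change of 0.13 (SE 0.09, adjusted p = 0.338). LTBR shares part of its span with SCNN1A, a sodium channel subunit, which had 31.0, 39.9 and 52.9 CPM with SAM and 75.9, 74.8 and 68.6 CPM in controls. TNFRSF12A, the TWEAK receptor Fn14, averaged 135 ± 20.2 CPM with SAM and 133 ± 14.3 CPM in controls (SD, n = 3 each). CD40 averaged 63.1 ± 7.78 CPM with SAM and 61.8 ± 2.95 CPM in controls. TNFRSF18, or GITR, the receptor of TNFSF18, had 30.8, 26.8 and 34.9 CPM with SAM and 25.1, 35.5 and 31.0 CPM in controls, with a 95% interval for the log2 fold change of -0.31 to 0.32. For both ligands that fell, LTB and TNFSF18, the cognate receptor was present and not called.

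The remaining tested receptors were TNFRSF11A, TNFRSF14 and TNFRSF19. TNFRSF11A, or RANK, known from osteoclasts and mammary epithelium, averaged 21.0 CPM with SAM and 23.4 CPM in controls. TNFRSF14, the LIGHT receptor HVEM, averaged 11.5 CPM with SAM and 13.1 CPM in controls. TNFRSF19, or TROY, had 6.03, 4.65 and 3.70 CPM with SAM and 3.97, 3.68 and 4.16 CPM in controls, with SAM 1 highest and SAM 3 among the controls. None of the 3 passed, with adjusted p between 0.314 and 0.437. Of the 22 tested members that were not called, 20 had a 95% interval of the log2 fold change within -1 and 1, and over all 22 the bounds ran from -1.11 for TNFSF10 to 0.89 for TNFSF14. For these genes any change within the interval remains compatible with the data at this depth and number of libraries.

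Counting overlap alone, 6 of 25 members had every SAM library under every control and 2 had every SAM library above. Over all tested genes the shares were 18.8% and 17.9%. The median log2 fold change of the 25 members was -0.13, beside -0.01 over all tested genes, with 15 estimates under 0 and 10 above. Both ligand and receptor estimates went either way, with 7 of 10 ligands and 8 of 15 receptors under 0.

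**Figure D4:**
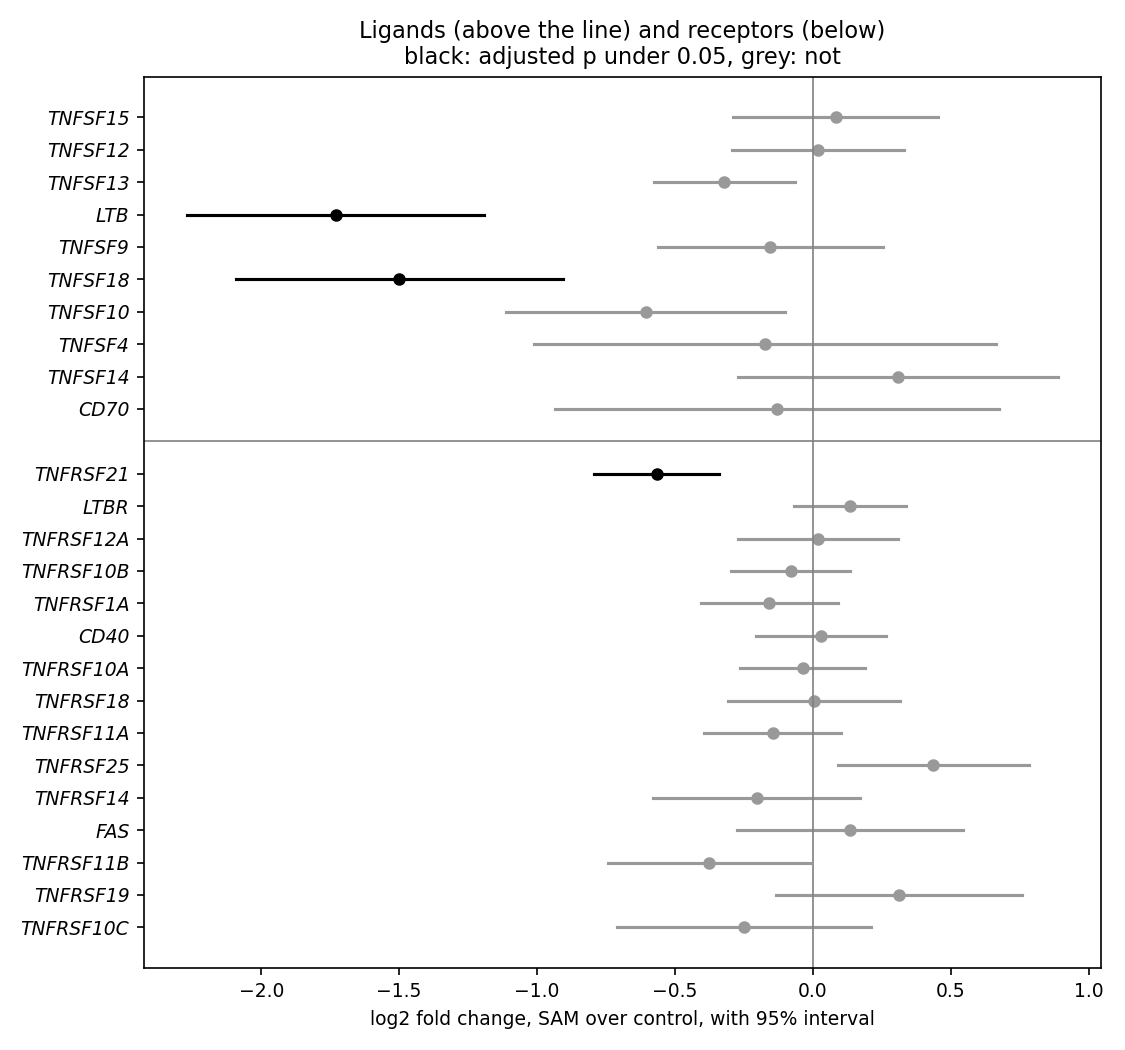
Log2 fold change of SAM over control (horizontal axis, points) with its 95% interval (lines) for the 25 tested members, ligands above the dividing line and receptors below. Black marks an adjusted p under 0.05. Only LTB at -1.73, TNFSF18 at -1.50 and TNFRSF21 at -0.57 are black.

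The 17 untested members comprised 7 ligands and 10 receptors with at most 9 counts in any library. CD27, CD40LG, TNFRSF13B and TNFRSF6B had no count. FASLG, LTA, TNF, TNFSF8, TNFSF11, TNFSF13B, TNFRSF1B, TNFRSF4, TNFRSF8, TNFRSF9, TNFRSF10D, TNFRSF13C and TNFRSF17 had 2 to 24 counts over all libraries together. Most of these are known from lymphocytes and myeloid cells, and a low count says only that they were under or near the floor here. TNFRSF6B, the soluble decoy DcR3, lies inside the readthrough gene RTEL1-TNFRSF6B, which had 123, 56 and 81 counts with SAM and 44, 82 and 96 in controls. Reads that fall on both cannot be assigned, so the 0 of TNFRSF6B is a count under this annotation. TNFSF12-TNFSF13, the readthrough gene over both ligands, had 0 counts in all libraries. The same limit holds there, and the counts of TNFSF12 and TNFSF13 may leave out reads shared with it. In all, 22 members overlap another listed gene, and for 6 tested ones that gene had at least 10 counts in some library: FAS with ACTA2, LTBR with SCNN1A, TNFRSF25 with PLEKHG5 and ESPN, TNFRSF10B with RHOBTB2, and TNFRSF10A and TNFRSF14 with non-coding genes. LTB and TNFRSF21 overlap none, and TNFSF18 lies only within RP1-15D23.2, which had 0 counts.

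Genes around the family were read in 6 lists, with 75 tested genes that are not members. Of these, 8 rose and 4 fell, beside 5.19% and 5.24% of all genes. The lists were chosen with earlier results of these data known. Of the 8 rises, 4 were the chemokine genes CXCL1, CXCL2, CXCL3 and CXCL8, neighbours on chromosome 4. The counts are therefore not independent of that choice or of each other. Among 5 superfamily genes outside the symbol rule, 3 were tested and 1 rose, with a list median log2 fold change of 0.63. RELT, a receptor that signals through NF-kB and stress kinases, had 29.8, 24.3 and 24.6 CPM with SAM and 16.9, 18.3 and 15.6 CPM in controls, all SAM libraries above all controls. Its log2 fold change was 0.63 (SE 0.12, adjusted p = 0.0136). NGFR, the neurotrophin receptor p75, had 3.55, 2.54 and 2.90 CPM with SAM and 1.29, 2.09 and 2.15 CPM in controls and did not pass (log2 fold change 0.67, SE 0.23, adjusted p = 0.0875). EDA, the ligand ectodysplasin, averaged 2.06 CPM with SAM and 1.84 CPM in controls, while its receptors EDAR and EDA2R were under the filter.

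Of 26 adaptors, ubiquitin ligases and kinases next to the receptors, 1 rose and 1 fell (median -0.08). MAP3K14, the kinase NIK that LTBR and CD40 use to start non-canonical NF-kB signalling, had 43.6, 43.2 and 38.8 CPM with SAM and 28.6, 29.7 and 31.1 CPM in controls (log2 fold change 0.49, SE 0.09, adjusted p = 0.0129). TANK, a TRAF-binding scaffold of TBK1, had 31.4, 32.0 and 29.5 CPM with SAM and 40.2, 41.5 and 40.9 CPM in controls (log2 fold change -0.40, SE 0.08, adjusted p = 0.0199). In both genes the groups were clear of each other. TRAF1, an adaptor induced by NF-kB, had 0.896, 0.592 and 0.924 CPM with SAM and 0.107, 0.227 and 0.588 CPM in controls and did not pass (adjusted p = 0.0970). TRADD, RIPK1, TRAF2, TRAF3, BIRC2 and BIRC3, the core of the TNFRSF1A complex and the brakes on NIK, were not called.

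Of 13 tested death-signalling components 2 rose and none fell (median 0.01). MLKL, the pore-forming effector of necroptosis, had 26.9, 25.2 and 24.6 CPM with SAM and 17.2, 15.8 and 15.3 CPM in controls (log2 fold change 0.68, SE 0.10, adjusted p = 0.00656). RIPK3, the kinase that activates MLKL, was not tested, with at most 1 count in any library. BID, which carries the death receptor signal to mitochondria once caspase-8 has cut it, averaged 39.6 ± 4.30 CPM with SAM and 29.0 ± 2.51 CPM in controls (SD, n = 3 each), a log2 fold change of 0.45 (SE 0.11, adjusted p = 0.0315). FADD, CASP8 and CFLAR, the adaptor, initiator caspase and inhibitor at the receptor, were not called. CFLAR came nearest, with 26.7 CPM with SAM and 33.4 CPM in controls on average (log2 fold change -0.32, SE 0.11, adjusted p = 0.0844).

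Of the NF-kB subunits and I kappa B kinases 0 of 7 were called by edgeR (median -0.07), and 3 had an unadjusted p under 0.05. These were NFKB1 and the kinase gene IKBKB, with estimates under 0 (log2 fold changes -0.23 and -0.25), and RELB, above 0 (log2 fold change 0.28). RELB is the partner of processed NFKB2 in the non-canonical branch. The edgeR adjusted p of these 3 genes lay between 0.105 and 0.153. The share of all genes under the unadjusted cut was not counted. Of 19 tested genes known to be induced by TNF, 4 rose and 2 fell (median 0.15). The rises were the neutrophil chemokines CXCL1, CXCL2, CXCL3 and CXCL8. CXCL1 had 241, 161 and 135 CPM with SAM and 51.6, 64.2 and 53.5 CPM in controls (log2 fold change 1.67, SE 0.20, adjusted p = 0.00230). The log2 fold changes of CXCL3, CXCL2 and CXCL8 were 1.57, 1.28 and 1.26 (adjusted p = 0.0157, 0.0224 and 0.0129), and in all 4 genes SAM 1 was the highest library. TNFAIP3, the deubiquitinase A20 that limits NF-kB, had 64.6, 63.3 and 37.6 CPM with SAM and 31.9, 38.1 and 39.2 CPM in controls, with SAM 3 among the controls, and did not pass (adjusted p = 0.0675). The falls, TNFAIP2 and PTX3, a long pentraxin, had log2 fold changes of -0.38 and -0.30 (adjusted p = 0.0497 and 0.0498), at the edge of the threshold. PTX3 was called in only 3 of 18 alternatives and with all libraries was not called by DESeq2 (adjusted p = 0.0724), by limma voom (adjusted p = 0.0584) or with RLE factors (adjusted p = 0.0523). TNFAIP2 was called in 9 of 18 and was not called with RLE (adjusted p = 0.053) or upper-quartile factors (adjusted p = 0.0592). NFKBIA, the first feedback inhibitor of NF-kB, averaged 87.1 CPM with SAM and 102.5 CPM in controls (adjusted p = 0.151).

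Of 7 tested proteases and cofactors that shed or cut ligands and receptors, 1 fell and none rose (median -0.21). ADAM17, the sheddase of TNF and its receptors, had 45.9, 52.6 and 36.6 CPM with SAM and 60.7, 58.8 and 68.6 CPM in controls (log2 fold change -0.48, SE 0.13, adjusted p = 0.0468). ADAM10, FURIN and RHBDF2 also lay lower in every SAM library than in every control and were not called, with adjusted p between 0.125 and 0.200. Of all tested genes, 18.8% lay lower without overlap in the same way.

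**Figure D5:**
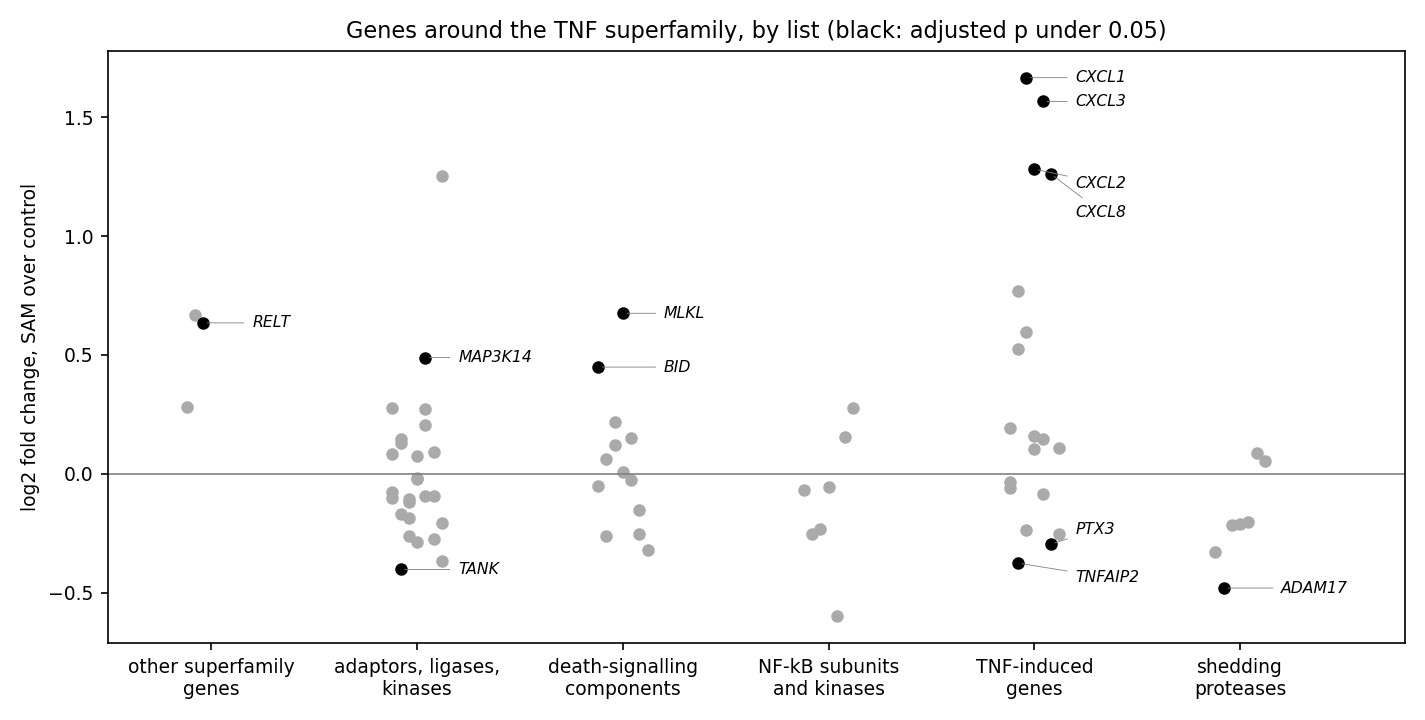
Log2 fold change of SAM over control (vertical axis) for the 75 tested genes of 6 lists (horizontal axis), 1 point per gene, spread sideways for view. Black points have an adjusted p under 0.05 and are named, from CXCL1 at 1.67 to ADAM17 at -0.48.

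The number of list genes called, 12 with all libraries, was 3, 16 and 18 without SAM 1, 2 and 3, and 2, 2 and 1 without control 1, 2 and 3. Calls among all genes moved in the same fits, to 215 without SAM 1 and 139 to 255 without 1 control, beside 1598 with all libraries. CXCL1 passed in every fit that left out 1 library (adjusted p up to 0.0259). MLKL was lost without control 2 (adjusted p = 0.051) and control 3 (adjusted p = 0.0695), and CXCL8 without control 1 (adjusted p = 0.0664) and control 3 (adjusted p = 0.0842). RELT, MAP3K14, TANK, BID, CXCL2, CXCL3, TNFAIP2, PTX3 and ADAM17 were each lost without SAM 1 and without control 1, 2 or 3, and PTX3 also without SAM 2. The fold changes kept their direction in these fits, with log2 values of 0.45 to 0.54 for MAP3K14, -0.42 to -0.37 for TANK and 0.52 to 0.70 for RELT, while those of CXCL2 ran from 0.97 to 1.55 and of CXCL3 from 1.11 to 1.86, lowest without SAM 1. Without both control 1 and SAM 2 there were 7 calls, with MAP3K14, BID, TANK, TNFAIP2 and PTX3 lost.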

How the data were processed

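The authors deposited raw counts per Ensembl gene and a second table of normalised signal, in which each library's counts are scaled by a size factor between 0.562 and 1.75. Per the labels, TruSeq libraries were read on a HiSeq2000, and the submitters' processing notes list hg19 and mm10 as builds, with STAR 2.4, HTSeq 0.6.1 and DESeq2 1.8 among the tools. The deposited transcript length column, another listed value, was not used. The study's text gives another SAM dose and platform and a vehicle of PBS with sulfuric acid and ethanol, and the labels were followed. Gene coordinates are GRCh38: 99.8% of 51488 identifiers shared with GENCODE 44 overlap that gene, all 42 members included. No source used here states if counting used strand. Of the listed genes, 3413 have no name.

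Counts were tested in edgeR 4.0.16 (R 4.3.3) with filterByExpr, TMM and glmQLFit over 15312 genes, treatment alone in the design, two-sided. SEs come from the F statistic (log2 fold change over root F). The procedure was checked on simulated data. Alternatives used DESeq2 1.42.0, limma 3.58.1 (voom, and a trend on log2 of the normalised signal plus 1), other scalings and filters, a replicate block, and left-out libraries. Levels between genes were compared per kilobase of the longest GENCODE transcript. All members are accounted for, and up to 6 called genes per list were named. TRAF1, CFLAR, NGFR, TNFAIP3, NFKBIA and other uncalled list genes were named after their values were seen. Members and lists were chosen with earlier results of these data known. Counting intervals and floors cover counting error only. Pairs of libraries within a group differed by 4.57 to 55.2 times the sampling variance in a chi-square of counts, so none was merged.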

Additional observations from a re-analysis of the deposited data

How the results depend on the processing

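The 3 called members had the same direction in all 18 alternatives, and LTB was called in each of them, TNFSF18 in 14 and TNFRSF21 in 13. Members called numbered 1 at an adjusted p under 0.01 and 1 to 5 with 1 library left out, where the 5 without SAM 3 added TNFRSF1A and TNFSF13. List genes called numbered 12 in the main fit, 7 with the replicate block, 7 without both control 1 and SAM 2, 2 at an adjusted p under 0.01 and 1 to 18 with 1 library left out. All genes called numbered 1598, and 2743 with no filter on low counts, 1028 with the replicate block, 954 without both libraries, 253 at an adjusted p under 0.01 and 139 to 3233 with 1 library left out. With library totals as the only scaling 38.8% of calls were upward, beside 49.7% with TMM, and the same 3 members were called. The same-numbered correlations of deviations from the group means were -0.17, -0.40 and 0.13. For pairs with unlike numbers they ran from -0.33 (SAM 3 with control 1) to 0.45 (SAM 2 with control 1). With means of 3 libraries these deviations are tied to each other, so they cannot decide whether the replicate numbers pair the libraries. With the replicate block the members called were again LTB, TNFSF18 and TNFRSF21, at log2 fold changes of -1.66, -1.40 and -0.57.

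Directions turned only in uncalled members with small estimates, and the cause was not tested. With library totals only, the log2 fold change was -0.0015 for CD40, -0.012 for TNFRSF12A, -0.027 for TNFRSF18 and -0.013 for TNFSF12, which was at -0.0069 with limma voom. Without both control 1 and SAM 2 it was 0.13 for CD70, -0.013 for TNFRSF18, -0.079 for TNFSF15 and 0.022 for TNFSF9. With 1 library left out it ran from -0.069 to 0.094 for CD40, -0.36 to 0.033 for CD70, -0.037 to 0.30 for FAS, -0.099 to 0.042 for TNFRSF10A, -0.076 to 0.13 for TNFRSF12A, -0.11 to 0.13 for TNFRSF18, -0.16 to 0.12 for TNFSF12, -0.14 to 0.18 for TNFSF15 and -0.64 to 0.15 for TNFSF4. Depth limits LTB and TNFSF18, which rest on 15 to 119 and 16 to 68 counts per library, and TNFSF4, TNFSF14 and CD70, which have fewer than 40.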
